A study of Mus musculus with 16 samples.

Results

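The 10 genes described here encode amino acid transporters of the plasma membrane in the mouse early embryo: Slc3a2, Slc7a5, Slc7a6, Slc7a7, Slc7a11, Slc7a1, Slc6a9, Slc38a2, Slc1a5 and Slc1a1. They were found by symbol among the 49585 gene identifiers of the deposited gene tables, and each matched 1 identifier. The set was chosen on a measured value, the lower level of Slc7a5 after knockdown of Suv39h2, with the other 9 added as its partner and as related carriers. The knockdown values of Slc7a5 are therefore given as a description, with no test. A gene is said to be called where the authors' adjusted p is under 0.05. All 10 genes had a mean count above 0, and 9 of 10 had a mean normalized count of 10 or more.

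The embryos were sequenced at the 2-cell stage, with Smart-seq2 libraries of polyadenylated RNA, in 16 libraries of 3 groups. The knockdown group (6 libraries) received double-stranded RNA targeting Suv39h2, a methyltransferase of histone H3 lysine 9, by injection at the zygote stage. The LacZ control group (6 libraries) was injected in the same way with double-stranded RNA for the bacterial gene LacZ. The non-injected group had 4 libraries. In all groups the paternal strain was DBA, the mothers were F1 females (C57BL/6J × CBA/H), and culture was in KSOM medium. The design text gives pools of 5 embryos a library, whereas the extraction label speaks of a single embryo, and a protocol label names Suv39h1 messenger RNA that no group label mentions. The labels do not say whether libraries came from separate collections of embryos, so p-values measure the spread between these libraries. The deposited tables hold means over libraries and the authors' own comparisons, without values of single libraries, so the depth of each library is unknown.

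Cells take up amino acids through carriers with overlapping substrates. Slc3a2 encodes a glycoprotein heavy chain (4F2hc, CD98) that carries light chains of the Slc7 family to the cell surface: Slc7a5 (LAT1) exchanges large neutral amino acids such as leucine, Slc7a6 and Slc7a7 exchange cationic for neutral amino acids, and Slc7a11 (xCT) takes up cystine in exchange for glutamate. Slc7a1 (CAT1) carries arginine and lysine without a heavy chain. Slc6a9 (GLYT1) takes up glycine, which early mouse embryos also accumulate to regulate their volume, Slc38a2 (SNAT2) takes up small neutral amino acids with sodium, Slc1a5 (ASCT2) exchanges neutral amino acids including glutamine, and Slc1a1 (EAAT3) takes up glutamate and aspartate.

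Starved cells raise several of these carriers through the factor ATF4, which binds a composite promoter element with the core TGATGNAA. Of the 10 genes, 8 had a promoter in the RefSeq table on GRCm38.p6, with 16 start sites in all, each covering 250 bases before to 50 bases after the start. The core was searched on both strands, together with CACGTG (an E-box) and TGACTCA (an AP-1 site). It was found in 2 of the 8 genes, Slc7a11 and Slc7a7, whereas 4.51% of the 27025 genes in the table hold it in at least 1 promoter, and 3.97% of the 32851 promoters. In Slc7a7 it lies in windows of 2 start sites that overlap and have 1 match in common. CACGTG was in none of the 8 genes, against 8.09% of all genes (7.15% of promoters), and TGACTCA was in Slc7a1, against 5.95% of all genes (5.20% of promoters). Slc7a5 and Slc1a5 are not in that table. A pair of promoters is printed to show a carrier with the core in the window searched and one without it there. Bases outside these windows were not searched, so the core may lie elsewhere in either gene. Slc7a11 (chr3:50443564-50443863, minus strand) has the core once on each strand, at -66 to -59 and at -47 to -40 from the start, and these bases are in capitals. Slc38a2 (chr15:96699679-96699978, minus strand), the least abundant of the 10 genes, has none of the letters searched in this window.
Slc7a11: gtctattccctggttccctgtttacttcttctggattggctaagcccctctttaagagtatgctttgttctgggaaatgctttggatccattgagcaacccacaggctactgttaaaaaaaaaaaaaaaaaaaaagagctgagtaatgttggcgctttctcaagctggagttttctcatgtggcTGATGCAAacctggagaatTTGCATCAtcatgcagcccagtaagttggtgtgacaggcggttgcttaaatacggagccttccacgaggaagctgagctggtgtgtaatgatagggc
Slc38a2: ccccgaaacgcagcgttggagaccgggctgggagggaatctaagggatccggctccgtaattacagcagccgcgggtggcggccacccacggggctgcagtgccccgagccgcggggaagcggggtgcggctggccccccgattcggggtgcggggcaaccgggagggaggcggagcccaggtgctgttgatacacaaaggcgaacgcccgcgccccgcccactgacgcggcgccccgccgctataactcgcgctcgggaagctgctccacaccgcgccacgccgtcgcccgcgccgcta
Slc7a11 was not called in any comparison described here, and Slc38a2 was called between LacZ control and non-injected embryos. These matches are a description of letters.

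The heavy chain was the most abundant of the 10 transcripts. Its mean normalized count over the 16 libraries, in the authors' deposited table, was 2711 for Slc3a2 (ENSMUSG00000010095.13, chromosome 19, 8706882 to 8723369, minus strand of GRCm38). Mean normalized counts are counts divided by the size factor of each library. Divided by the length of all its exons together, this is 768 counts per kilobase, above 98.3% of protein-coding genes with a mean above 0. The light chains were far below it on the same scale: 29.5 counts per kilobase for Slc7a5, 18.9 for Slc7a6, 10.5 for Slc7a11 and 3.50 for Slc7a7. Their sum was 62.4 counts per kilobase, so the level of Slc3a2 was 12.3 times that of the 4 light chains together. With the light chains Slc7a8 and Slc7a10, outside the 10 genes, also included, it was 11.9 times. The carriers without a heavy chain ranged from 82.6 counts per kilobase for Slc6a9, 74.7 for Slc1a1 and 69.4 for Slc1a5 to 4.28 for Slc7a1 and 1.04 for Slc38a2. The median protein-coding gene with a mean above 0 stood at 9.56 counts per kilobase. Slc7a1, Slc7a7 and Slc38a2 thus lay below the typical gene and the other 7 above it, as the plot of levels per kilobase shows. The levels carry no spread, because the tables give 1 mean over all libraries, and neighbours in this order cannot be tested against each other.

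**Figure D1:**
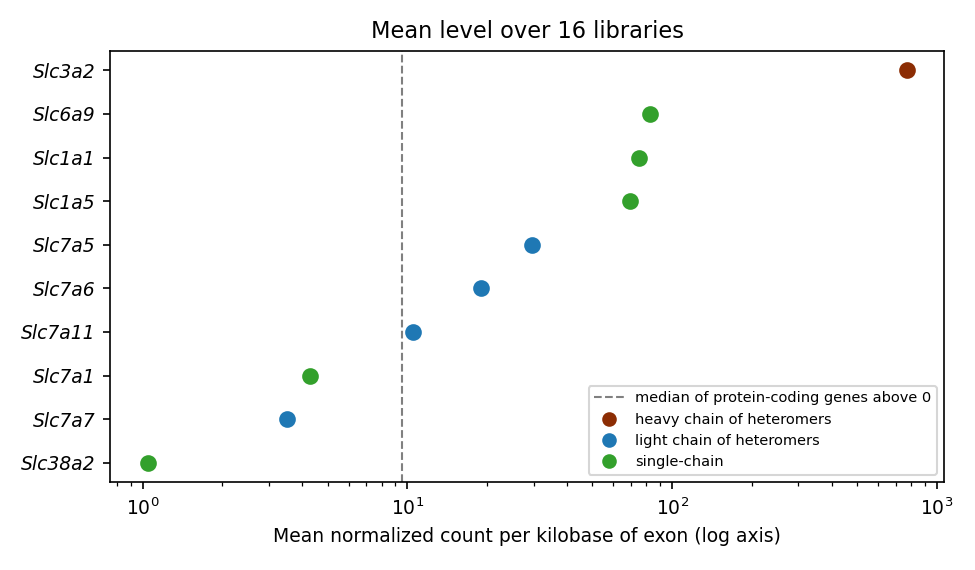
Mean normalized count per kilobase of exon over all 16 libraries (log axis) for the 10 transporters, coloured by role; the dashed line is the median of protein-coding genes above 0 (9.56). Slc3a2 stands at 768 and all 4 light chains at or below 29.5.

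The genes lie apart in the genome. Slc7a5 (ENSMUSG00000040010.10) is on chromosome 8, from 121881150 to 121907694 on the minus strand of GRCm38, and Slc7a6 is on the plus strand of the same chromosome, from 106168857 to 106198706. Slc6a9 is on chromosome 4 (117834506 to 117875198), Slc38a2 on chromosome 15 (96687392 to 96699730), Slc1a5 on chromosome 7 (16781340 to 16798274) and Slc1a1 on chromosome 19 (28835049 to 28913960). All 10 are annotated as protein-coding. Smart-seq2 does not record the strand, and exons of 3 of the genes overlap genes on the opposite strand. For Slc1a1, 31.9% of exon bases are shared with 4430402I18Rik. For Slc6a9, 27.8% are shared with Ccdc24, 9.94% with Gm17114 and 0.895% with B4galt2, and for Slc7a7, 232 of 3315 exon bases with Oxa1l. Reads of those stretches cannot be told apart without strand.

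Knockdown was first set against LacZ control, the comparison of 2 injected groups. The target Suv39h2 stood at a log2 fold change of -1.95 ± 0.28 in the authors' deposited table, where ± is the standard error here and below, with a DESeq2 adjusted p of 4.72e-08. Slc7a5 had a mean normalized count of 109 and a log2 fold change of -1.22 ± 0.31 in the authors' deposited table, which is a 2.33-fold lower level in knockdown. It was the 1 gene of the 10 with an adjusted p under 0.05 here, against calls at 0.899% of all 15572 genes that have an adjusted p. The gene was chosen for its lower level in knockdown, and nothing is read from this count. In RNA of whole embryos, fewer cells with a transcript and less transcript per cell cannot be told apart. The heavy chain Slc3a2, with which the Slc7a5 protein pairs, stood at 0.24 ± 0.20 in the authors' deposited table, with a 95% interval of -0.16 to 0.63. Among the other light chains, Slc7a6 stood at 0.12 ± 0.28, Slc7a7 at 0.25 ± 0.40 and Slc7a11 at -0.15 ± 0.25 in the authors' deposited table. None of these 3 light chains was called, and each differed from 0 by less than 1 standard error.

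Of the single-chain carriers, the glycine carrier Slc6a9 had the highest difference between knockdown and LacZ control, at 0.61 ± 0.32 in the authors' deposited table, with a 95% interval of -0.01 to 1.23. Slc38a2 followed at 0.51 ± 0.40 in the authors' deposited table. Slc1a1 stood at 0.15 ± 0.26, Slc7a1 at -0.14 ± 0.32 and Slc1a5 at -0.37 ± 0.39 in the authors' deposited table. None of these 5 was called. Over the 10 genes the median log2 fold change was 0.13, with 6 positive and 4 negative, against 0.02 over all genes with an adjusted p. At a mean count of 100 or more, the median over all genes was -0.08 in this comparison.

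**Figure D2:**
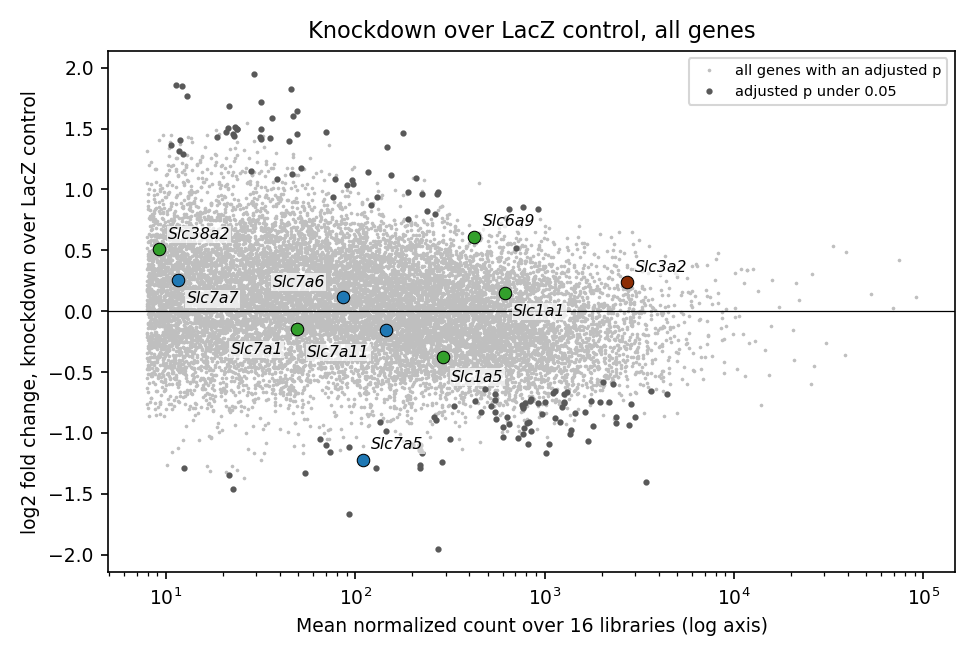
The log2 fold change of knockdown over LacZ control against the mean normalized count (log axis) for all 15572 genes with an adjusted p; dark points are called genes and coloured circles the 10 transporters. Slc7a5 lies among the called genes at -1.22, and the other 9 lie between -0.37 and 0.61.

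Knockdown against non-injected embryos combines the double-stranded RNA against Suv39h2 with the injection itself, and shares the knockdown libraries with the comparison above. Of the 9 transporters with an adjusted p, 1 was called higher and 1 lower, against calls at 15.2% of all 14948 genes that have an adjusted p. Slc6a9 was higher in knockdown by 0.92 ± 0.33 (adjusted p = 0.0439) in the authors' deposited table, a 1.89-fold difference. With adjustment over every deposited p-value its adjusted p was 0.0885, above 0.05, and over all alternatives it lay between 0.0293 and 0.0885. Its overlapping neighbours in the authors' deposited table stood at 0.50 ± 0.30 for Ccdc24 and 0.82 ± 0.40 for Gm17114, neither called, and their part in the value of Slc6a9 was not tested. Slc7a5 was the gene called lower, at -1.25 ± 0.32 in the authors' deposited table, 2.38-fold below non-injected embryos. It was chosen for its lower level in knockdown, so its call here is a description, and nothing is read from the count that includes it.

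Slc38a2 had the highest value of the 10 genes here, 1.31 ± 0.39 in the authors' deposited table, at a mean count of 9.23. It has an unadjusted p of 2.97e-05 and no adjusted p in that table, in which the lowest mean count with an adjusted p is 9.66. With adjustment over every deposited p-value its adjusted p was 0.00265. The fold change over its standard error was not tested for Slc38a2 in this comparison, because it has no adjusted p there. Slc1a5 stood at -0.73 ± 0.40, the cationic exchanger Slc7a6 at -0.64 ± 0.29 and the glutamate carrier Slc1a1 at -0.62 ± 0.27 in the authors' deposited table, with adjusted p of 0.286, 0.0941 and 0.102. The remaining 4, none of them called, were Slc7a7 at -0.37 ± 0.39, Slc7a11 at 0.32 ± 0.26, Slc3a2 at 0.29 ± 0.21 and Slc7a1 at 0.07 ± 0.33 in the authors' deposited table. The median over the 9 transporters with an adjusted p was -0.37, against 0.05 over all genes with an adjusted p, and over all 10 transporters it was -0.15. At a mean count of 100 or more, the median over all genes was -0.08.

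LacZ control against non-injected embryos is the comparison without knockdown libraries, though it shares its groups with the others. Of the 10 transporters 1 was called, where 0.792% of 29288 genes were called. Slc38a2 was higher in LacZ control by 0.80 ± 0.39 (adjusted p = 0.0407) in the authors' deposited table, a 1.74-fold difference at its mean count of 9.23. The deposited statistic of Slc38a2 was 3.63, larger than the printed fold change over its standard error. A test on that ratio, which uses a fold change labelled as shrunken, called 20 of the 29288 genes. For Slc38a2 it gave an adjusted p of 0.747, the highest over its alternatives, which began at 0.0407. Slc1a1 stood at -0.77 ± 0.28 and Slc7a6 at -0.76 ± 0.29 (adjusted p = 0.272 and 0.352) in the authors' deposited table. Both were under 0.05 before adjustment. The gene overlapping Slc1a1, 4430402I18Rik, stood at -0.77 ± 0.29 in the authors' deposited table, and its part in the value of Slc1a1 was not tested. Slc7a7 stood at -0.62 ± 0.39, Slc7a11 at 0.47 ± 0.26, Slc1a5 at -0.36 ± 0.40, Slc6a9 at 0.31 ± 0.33 and Slc7a1 at 0.22 ± 0.34 in the authors' deposited table. The transcripts of both chains of the leucine exchanger were nearest to 0, with 0.05 ± 0.22 for Slc3a2 and -0.03 ± 0.33 for Slc7a5 in the authors' deposited table, and with 95% intervals of -0.37 to 0.47 and -0.67 to 0.61. The median of the 10 genes was 0.01, against 0.00 over all genes with an adjusted p.

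**Figure D3:**
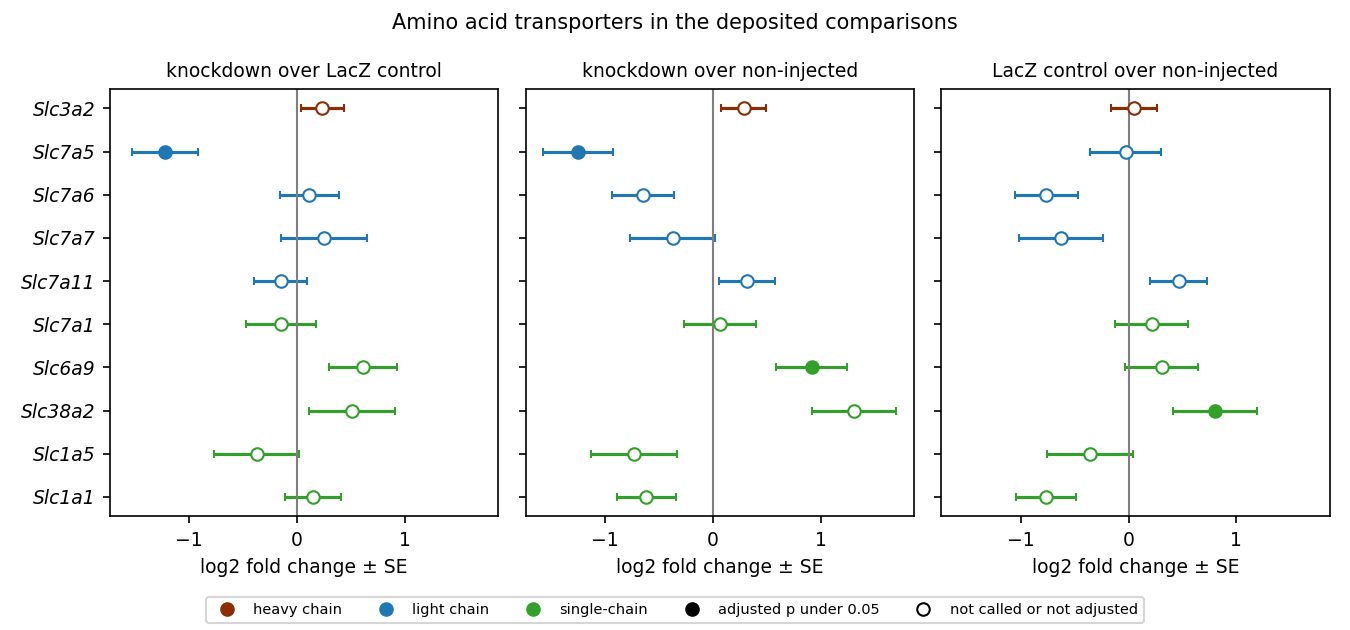
The log2 fold change with its standard error for the 10 transporters in the 3 comparisons, ordered by role; filled points have an adjusted p under 0.05. Slc7a5 is filled in both knockdown panels (-1.22 and -1.25), Slc6a9 in knockdown over non-injected (0.92) and Slc38a2 in LacZ control over non-injected (0.80).

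The order of the 3 groups differed between genes. For Slc7a5 and Slc1a5 knockdown was lowest, LacZ control in the middle and non-injected highest. For Slc3a2, Slc6a9 and Slc38a2 knockdown was highest and non-injected lowest. For Slc7a6, Slc7a7 and Slc1a1 LacZ control was lowest and non-injected highest, and for Slc7a1 and Slc7a11 LacZ control was highest and non-injected lowest. Most neighbours in these orders did not pass the test. The exceptions were knockdown below LacZ control for Slc7a5, chosen for its lower level in knockdown, and LacZ control above non-injected for Slc38a2.

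The level of Slc7a5 relative to non-injected embryos was set beside those of 7176 other protein-coding genes with a mean count of 100 or more. With 2 values a gene (knockdown and LacZ control, both over non-injected), the nearest by Euclidean distance was Oip5, a factor in loading of the centromeric histone variant, at a distance of 0.06 on the log2 scale. Next came Znrd1, a subunit of RNA polymerase I (0.07), Zfp936, a zinc finger gene (0.09), Utp18, a factor of small ribosomal subunit processing (0.11), and Ranbp2, a nucleoporin (0.14). In all, 10 genes lay within 0.20. Oip5 shares 9.67% of its exon bases with Nusap1 on the opposite strand. Likeness over 3 groups is a description only.

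Genes of amino acid use were then examined in lists made with earlier results of these data known, and each count reads against the percentages of called genes given above. Those shares depend on abundance. With adjustment over the 7722 genes with a mean count of 100 or more, DESeq2 p-values gave calls at 2.08% in knockdown over LacZ control. The share was 25.8% in knockdown over non-injected and 0.945% in LacZ control over non-injected. Of 38 other amino acid transporters, 21 had an adjusted p in each knockdown comparison. Between knockdown and LacZ control DESeq2 called 0 of the 21. Of the 32 with a p-value, 1 was higher and 1 lower at an unadjusted p under 0.05. Between knockdown and non-injected 2 of 21 were called, both higher: Slc6a15, a carrier of branched-chain amino acids and proline, by 0.78 ± 0.18 (adjusted p = 0.00107), and Slc6a20a, a carrier of proline and betaine, by 0.98 ± 0.33 (adjusted p = 0.0227) in the authors' deposited table. Slc6a20a shares 13.8% of its exon bases with Gm17120 on the opposite strand. Between LacZ control and non-injected DESeq2 called 0 of 30, with 3 higher at an unadjusted p under 0.05. The median log2 fold change of this list in the order of the comparisons above was 0.13, 0.14 and -0.04.

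The genes that sense amino acids for the growth kinase mTORC1 (39 found) had 0 calls in knockdown over LacZ control by DESeq2, with 1 lower at an unadjusted p under 0.05. In knockdown over non-injected 2 of 38 were called. Lamtor3, part of the lysosomal anchor of mTORC1, was higher by 0.91 ± 0.23 (adjusted p = 0.00241), and Pqlc2, a lysosomal exporter of cationic amino acids, fell by 0.84 ± 0.23 (adjusted p = 0.00571) in the authors' deposited table. In LacZ control over non-injected DESeq2 called 0 of 39, with 6 higher and 2 lower at an unadjusted p under 0.05. The list medians were 0.04, 0.21 and 0.09.

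The amino acid deprivation response had 0 calls of 20 in knockdown over LacZ control by DESeq2, with a median of 0.01. Of its 24 genes with a p-value, 2 were higher and 4 lower at an unadjusted DESeq2 p under 0.05. In knockdown over non-injected 5 of 20 (25.0%) were called, all lower, with a list median of 0.02. Over all genes the share was 15.2% under the same adjustment. It was 25.8% at a mean count of 100 or more, a filter and adjustment not applied to this list. Nothing is read from the number of these 5 genes. Of these, 4 act on or are part of the initiation factor eIF2, upstream of ATF4: Eif2ak1 (-0.56 ± 0.15) and Eif2ak3 (-0.90 ± 0.26), which are eIF2 kinases, the alpha subunit Eif2s1 (-0.79 ± 0.23), and Ppp1r15b (-0.60 ± 0.21), which targets a phosphatase to it (adjusted p = 0.00497, 0.00937, 0.00926 and 0.0319) in the authors' deposited table. The last was Ppp1r15a, which also targets a phosphatase to eIF2 and is itself induced in the response, at -0.74 ± 0.26 (adjusted p = 0.0329) in the authors' deposited table. Atf4 itself stood at -0.30 and its target Asns, asparagine synthetase, at -0.09 in the authors' deposited table, neither called. Eif2ak2 and Eif2ak4, the other eIF2 kinases of the list, were not among the called genes. Ppp1r15a, Eif2ak2, Eif2ak4, Atf4 and Asns were named after their values were seen. Eif2ak1, Eif2ak3 and Ppp1r15b share 8.59%, 8.05% and 11.4% of their exon bases with a gene on the opposite strand. Eif2ak1 also shares 3.03% with Ankrd61 on the opposite strand. In LacZ control over non-injected DESeq2 called 0 of 24, with 1 higher at an unadjusted p under 0.05, and the median was -0.18.

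Among genes of serine, glycine and proline synthesis, 1 of 16 was called in knockdown over LacZ control. It was Psat1, a serine synthesis enzyme, which fell by 0.74 ± 0.21 (adjusted p = 0.0456) in the authors' deposited table. Against non-injected embryos 6 of 16 were called, 2 higher and 4 lower, where 15.2% of all genes with an adjusted p were called. The share over all genes with a mean count of 100 or more, with its own adjustment, was 25.8%. Psat1 fell by 1.14 ± 0.22 in knockdown (adjusted p = 6.67e-05) in the authors' deposited table. Gcsh, a protein of the glycine cleavage system, fell by 0.81 ± 0.23, and Shmt1, which interconverts serine and glycine, by 0.60 ± 0.18 (adjusted p = 0.00974 and 0.0129) in the authors' deposited table. Mthfd2, a mitochondrial folate enzyme, was higher by 0.62 ± 0.20 (adjusted p = 0.0179) in the authors' deposited table. LacZ control over non-injected had 0 calls of 17 by DESeq2 and 0 at an unadjusted p under 0.05. The list medians were -0.09, 0.07 and -0.13. Shmt1 shares 4.74% of its exon bases with Smcr8 on the opposite strand.

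Cystine taken up by Slc7a11 feeds glutathione synthesis, and Slc7a11 itself was not called. Of 15 genes of cysteine and glutathione use, DESeq2 called 0 in knockdown over LacZ control, with 2 lower at an unadjusted p under 0.05. In knockdown over non-injected 5 of 15 were called, 4 lower and 1 higher, where 15.2% of all genes with an adjusted p were called. The share over all genes with a mean count of 100 or more, with its own adjustment, was 25.8%. Gclc and Gclm, the subunits of the rate-limiting enzyme of glutathione synthesis, fell by 1.29 ± 0.27 and 1.12 ± 0.29 (adjusted p = 0.000447 and 0.00342) in the authors' deposited table. Glutathione reductase, Gsr, fell by 0.97 ± 0.26 (adjusted p = 0.00384) in the authors' deposited table, and the synthetase Gss, named after its value was seen, by 0.87 ± 0.32 (adjusted p = 0.0429). The glutaredoxin Glrx was higher by 0.93 ± 0.28 in knockdown over non-injected (adjusted p = 0.00994) in the authors' deposited table. It was also the 1 called gene of 15 in LacZ control over non-injected, at 1.01 ± 0.28 (adjusted p = 0.0446) in the authors' deposited table. In that comparison 1 was higher and 3 were lower at an unadjusted DESeq2 p under 0.05. The medians of the list were 0.04, 0.05 and -0.13. Gss shares 6.68% of its exon bases with Acss2, 6.51% with Gssos2 and 5.44% with Gssos1, all on the opposite strand. Gclm shares 4.71% with Gm17494 on the opposite strand and 3.88% with Gm6061, a pseudogene on the same strand.

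**Figure D4:**
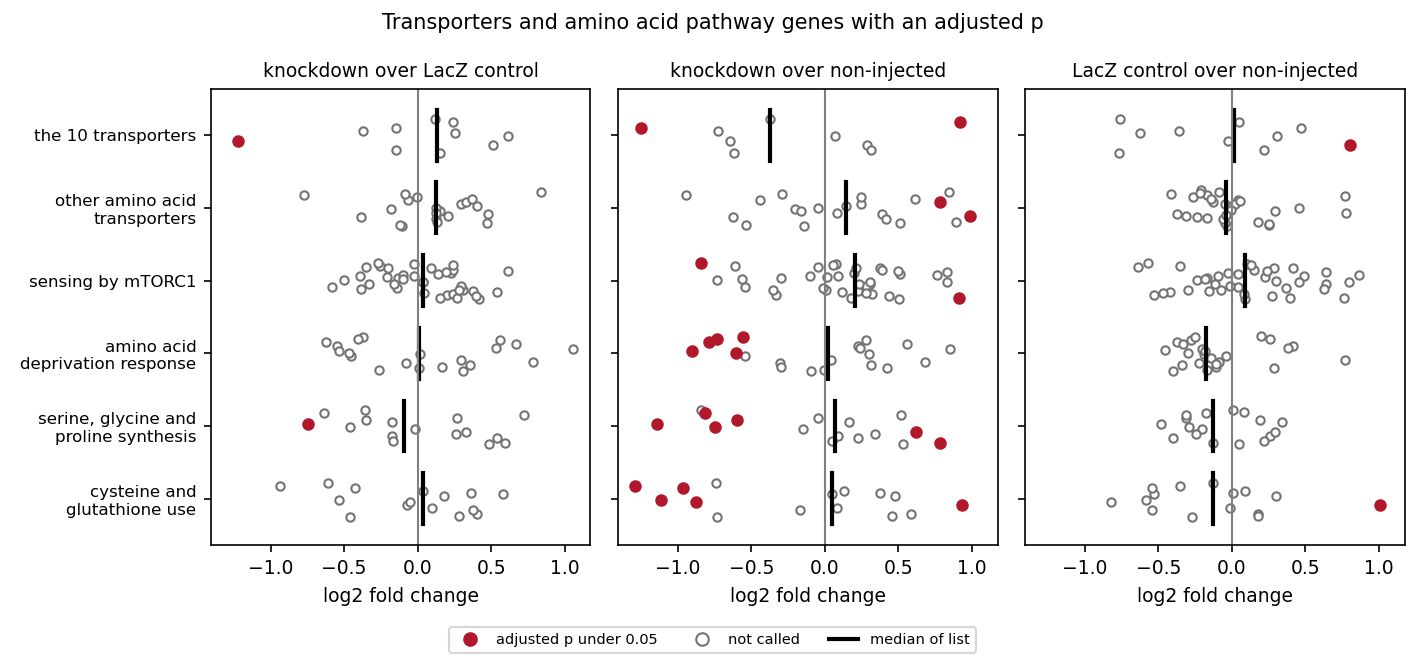
The log2 fold change of each gene with an adjusted p, by list, in the 3 comparisons; red points have an adjusted p under 0.05 and black bars are list medians. Of the 10 transporters 9 appear in knockdown over non-injected, since Slc38a2 has no adjusted p there. In that panel all 5 called genes of the deprivation response lie below 0.

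Markers of the labelled stage were present. The 10 genes of 2-cell embryos, such as Zscan4d, each had a mean count of 257 or more, and summed to 8462; several belong to families of near-identical copies, such as Zscan4, whose single values are uncertain. Of 12 markers of cumulus and granulosa cells 3 reached a mean count of 10, with a sum of 76.7, and Inhba was listed at 0. Of 7 sperm transcripts 0 reached 10, with a sum of 13.6, and Smcp was listed at 0. All 8 oocyte markers reached a mean count of 10, with a sum of 19821. Of the cumulus and granulosa markers 4 had an adjusted p in each knockdown comparison, and of the sperm transcripts 0, so calls were possible for few or none of them. DESeq2 called 0 of those 4. Of the 11 cumulus and granulosa markers with a p-value, 2 were higher in knockdown over non-injected at an unadjusted p under 0.05. Sums per group are not given in the tables. Among the 2-cell markers 5 of 10 were called higher in knockdown over non-injected and 2 of 10 in LacZ control over non-injected. The shares called over all genes with an adjusted p were 15.2% and 0.792%. Among the 8 oocyte markers 4 were called higher in knockdown over non-injected. DESeq2 called 0 of these 18 in knockdown over LacZ control, with 1 higher in each list at an unadjusted p under 0.05. The part of these differences in the transporter values was not tested.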

How the data were processed

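Polyadenylated RNA of 2-cell embryos was sequenced by the submitters, and groups were taken from the sample titles. Per the submitters' processing notes, the build was GRCm38.p5 and the tools were STAR 2.5.2b, SAMtools, HTSeq 0.9.1 and DESeq2 1.18.1. RUVSeq correction and shrinkage of fold changes are known only from the names of the tables. Per the file headers, the deposited columns are, for each gene, the mean normalized count (a signal, scaled by size factors), the log2 fold change, its standard error, the Wald statistic (a score), the p-value and its adjusted form. Shrunken fold changes understate differences of weakly expressed genes. The annotation release and the treatment of overlapping genes were not given in the sources used here. Repeat tables were not used here.

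Tests across genes are the authors' own, and an adjusted p under 0.05 was a call. No file holds values of single libraries (0 such columns), so depth, batches and leaving out libraries could not be examined. Symbols, exon lengths (the union of all exons) and overlaps came from GENCODE M21 on GRCm38, which named 99.5% of identifiers, and promoters from RefSeq on GRCm38.p6. Intervals are 95% normal intervals of the shrunken fold change, computed with pandas 2.3.3. Adjustments were repeated with the Benjamini-Hochberg method, tested on simulated data. The members and lists were chosen with earlier results of these data known. Named genes were the 10 members, up to 4 called genes of each list with the smallest p-values, and the 5 genes nearest to Slc7a5. The alternatives were other filters, thresholds, statistics and gene lengths.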

Additional observations from a re-analysis of the deposited data

How the results depend on the processing

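No paired analysis was possible because the tables hold no values of single libraries, and leaving out replicates was not run for the same reason. At an adjusted p under 0.01 the called members were 0 in knockdown over LacZ control, 1 in knockdown over non-injected (Slc7a5) and 0 in LacZ control over non-injected. In that last comparison 0 members were called at a mean count of 10 or more and of 100 or more, filters that remove Slc38a2 by construction, and 0 with the fold change over its standard error. The cause of this last loss was not tested. With adjustment over every p-value the 2 called members in knockdown over non-injected were Slc7a5 and Slc38a2 (0.00265), without Slc6a9 (0.0885), against 5.31% of all 33028 genes called. Slc7a6 in knockdown over non-injected was called at an adjusted p under 0.1 (0.0941), against 21.7% of all 14948 genes. Over all genes, calls in knockdown over LacZ control numbered 462 of 15572 at an adjusted p under 0.1 and 14 under 0.01, and 974 of 14948 under 0.01 in knockdown over non-injected. In LacZ control over non-injected they numbered 62 of 14830 at a mean count of 10 or more, 73 of 7722 at 100 or more, and, of 29288, 146 under 0.01 and 20 with the fold change over its standard error. The median of the 10 genes in knockdown over LacZ control was 0.00 over members with a mean count of 100 or more and 0.21 when centred on all genes of that level. With the longest transcript the levels per kilobase were 1.05 to 2.17 times those printed, and with the mean coding transcript 1.05 to 4.47 times; 2 genes changed rank under each, and Slc3a2 exceeded the 4 light chains 12.8 and 20.3 times. Depth is unknown, and Slc38a2 and Slc7a7, with mean counts of 9.23 and 11.6, have the lowest counts of the 10 genes.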

Other observations

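Among the 38 other amino acid transporters, 2 had a mean level per kilobase of exon above that of Slc1a5. They were Slc6a15, at 100.1 counts per kilobase, and Slc16a10, a carrier of aromatic amino acids, at 97.6. The taurine carrier Slc6a6 (38.9) and the cationic carrier Slc7a2 (36.2) also lay above Slc7a5. These 4 were picked for their level after the values had been seen. Slc16a10 stood at -0.11 in knockdown over LacZ control, -0.14 in knockdown over non-injected and -0.04 in LacZ control over non-injected in the authors' deposited table, and was not called in any of them. Of the 38, 6 were listed at a mean count of 0, among them Slc7a10 and Slc7a12, and 12 lay above 0 and under 10.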
